A study of Mus musculus with 8 samples.

Results

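C/D box small nucleolar RNAs (snoRNAs) were counted in total RNA and in RNA that came down with AGO2 (AGO2-IP, an immunoprecipitation with antibody-coated beads) from wild-type (WT) and miR-379KO mouse mesangial cells (MMC). The members were the gene rows whose symbol begins with Snord and a digit. There were 76 such rows, with 74 different symbols, among 24639 gene rows. A set of 5 members, Snord22, Snord15b, Snord15a, Snord17 and Snord8, held between 99.4% and 99.8% of the C/D box snoRNA counts in each AGO2-IP library. The other 71 members reached at most 15 counts in any AGO2-IP library. In total RNA, which was poly(A)-selected, no member exceeded 23 counts. For none of these 5 did the AGO2-IP level differ between genotypes beyond the spread of the replicates. The other 71 did not pass the filter on low counts in that comparison.

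C/D box snoRNAs are short nucleolar RNAs, most of them cut out of the introns of longer host genes. They are named for the conserved C box near the 5′ end and D box near the 3′ end, which together bind the proteins SNU13, NOP56, NOP58 and the methyltransferase fibrillarin. Base pairing between the snoRNA and its target places a methyl group on the ribose of ribosomal RNA or of the spliceosomal U6 RNA, and a few members act in cutting the ribosomal RNA precursor instead. H/ACA box snoRNAs, which guide pseudouridylation, and the small Cajal body RNAs (scaRNAs) are related classes. AGO2, an Argonaute protein, binds microRNAs and the transcripts they pair with.

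The sequences of the 5 members that carried the AGO2-IP counts are given first, as DNA read 5′ to 3′ from GRCm38 at the GENCODE vM21 interval. Capitals mark the first C box match (NTGATGA within 25 bases of the 5′ end) and the D box match (CTGA within 12 bases of the 3′ end), both searched on the transcribed strand only.
Snord22: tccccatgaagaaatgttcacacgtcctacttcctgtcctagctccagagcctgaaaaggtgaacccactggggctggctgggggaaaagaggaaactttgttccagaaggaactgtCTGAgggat
Snord15b: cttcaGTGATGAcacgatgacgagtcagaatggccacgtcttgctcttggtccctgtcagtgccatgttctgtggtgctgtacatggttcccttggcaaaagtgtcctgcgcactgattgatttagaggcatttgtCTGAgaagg
Snord15a: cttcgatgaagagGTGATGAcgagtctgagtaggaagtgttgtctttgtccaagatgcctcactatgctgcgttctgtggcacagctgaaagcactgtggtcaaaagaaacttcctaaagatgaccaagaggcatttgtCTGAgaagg
Snord17: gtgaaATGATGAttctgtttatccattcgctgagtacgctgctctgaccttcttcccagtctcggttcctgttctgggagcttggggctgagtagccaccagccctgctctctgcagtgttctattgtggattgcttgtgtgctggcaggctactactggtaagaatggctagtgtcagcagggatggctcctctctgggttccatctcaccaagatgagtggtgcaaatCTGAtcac
Snord8: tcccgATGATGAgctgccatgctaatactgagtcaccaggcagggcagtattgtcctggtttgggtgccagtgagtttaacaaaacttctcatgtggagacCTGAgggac

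Snord22 (U22), an RNA needed for maturation of the small-subunit ribosomal RNA, lies at chr19:8725866-8725991 on the plus strand within Snhg1. Snord15b and Snord15a, the U15 pair that guides methylation of the large-subunit ribosomal RNA, lie on the minus strand within Rps3, at chr7:99479563-99479707 and chr7:99482785-99482932. Snord17, also a large-subunit guide, lies at chr2:144265979-144266216 on the minus strand within Snx5. Snord8, a guide for U6 RNA, lies at chr14:52209785-52209894 on the minus strand within Chd8. None of the 5 overlapped an annotated exon of another transcript, so each was intronic. Over a global alignment of 162 columns the U15 pair was 66.05% identical, with a longest identical run of 21 bases. Snord22 held the D box letters but not the C box letters that were searched.

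For contrast, the following 3 members had few counts in AGO2-IP. Snord104 and Snord96a had mean counts in total RNA among the 3 highest, and Snord23 is nearly as long as Snord8.
Snord104: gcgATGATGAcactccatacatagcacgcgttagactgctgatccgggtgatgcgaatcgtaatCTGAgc
Snord96a: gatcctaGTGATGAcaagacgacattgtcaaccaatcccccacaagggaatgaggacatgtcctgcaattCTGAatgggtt
Snord23: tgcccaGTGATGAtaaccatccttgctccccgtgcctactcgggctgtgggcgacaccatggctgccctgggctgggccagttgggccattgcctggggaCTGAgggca

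Snord104 lies at chr11:106500993-106501062 (plus strand, within Gm36220), Snord96a at chr11:48802032-48802112 (plus strand, within Rack1) and Snord23 at chr7:15938762-15938870 (minus strand, within Nop53). Of 68 members with a GENCODE sequence used here, 42 held the C box letters in the window, 55 the D box letters and 38 both (55.88%). Of 41 H/ACA box snoRNAs and scaRNAs, 3 held both (7.317%). With the RefSeq intervals, which were shorter than the GENCODE ones for 58 members, 22 of 69 members held the C box letters, 66 the D box letters and 21 both.

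The 8 libraries came from untreated primary MMC of C57BL/6J mice, cultured from glomeruli at passages 5 to 7 in RPMI medium with 10% FBS. WT MMC and miR-379KO MMC, the latter homozygous for a 36-bp deletion made with a CRISPR-Cas9 nickase, each gave 2 replicates (A and B) of total RNA and 2 of AGO2-IP. Glomeruli were pooled for culture, and the study calls A and B independent samples without naming them as separate cultures in the sources used here, so p-values measure the spread between these libraries. A stranded kit that selects poly(A) RNA was used for total RNA, whereas adapters were ligated to RNA from cross-linked, sonicated lysate for AGO2-IP, so the type of library and the immunoprecipitation cannot be told apart. No input library made in the AGO2-IP manner was analysed here.

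Total RNA libraries held 17168230 to 22660743 gene counts and AGO2-IP libraries 5587611 to 17095021. In AGO2-IP, 80% to 89.0% of these fell on Rn45s (the ribosomal RNA precursor) and Lars2, which left 1115782 to 1875037 other gene counts, against 15524220 to 21343458 in total RNA. Levels are therefore given as counts and as CPM, here counts per 1000000 gene counts other than Rn45s and Lars2. Mesangial markers (Pdgfrb, Acta2, Des, Itga8, Gata3, Vim) were above 3 counts in every group. The Mir379 row had 0 counts in all 4 total RNA libraries and at most 4 in AGO2-IP, too few to check the deletion.

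The poly(A)-selected total RNA libraries held few C/D box snoRNA counts, which need not mean that these RNAs were scarce in the cells. The 76 members summed to 130 and 158 counts for the WT pair and to 139 and 166 for the miR-379KO pair. As a share of gene counts this was 0.000833% ± 0.000107 (SD, n = 2) in WT and 0.000774% ± 0.000227 in miR-379KO. Between 35 and 39 members had a count in each library, and 23 members had 0 in all 4.

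In AGO2-IP the members summed to 56230 (A) and 24569 (B) counts for WT MMC and to 36243 and 33426 for miR-379KO MMC. The share of gene counts was 0.329% (95% Wilson interval 0.326 to 0.332) and 0.256% (0.253 to 0.260) for the WT pair and 0.554% (0.548 to 0.559) and 0.598% (0.592 to 0.605) for the miR-379KO pair. Intervals cover counting error only. On this scale the genotypes did not overlap. Without Rn45s and Lars2 in the denominator the shares were 3.0% and 1.53% for the WT pair and 2.77% and 3.0% for the miR-379KO pair, and the genotypes overlapped. With 2 libraries against 2 no exact permutation test can reach 0.05.

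**Figure D1:**
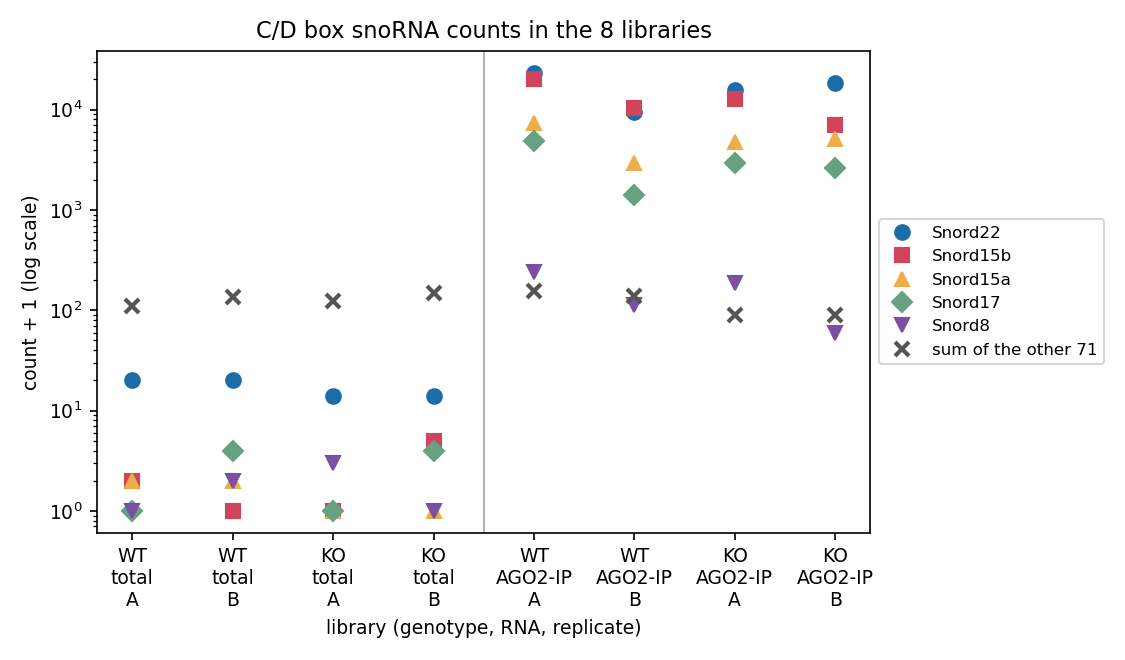
Counts plus 1 (vertical log axis) of the 5 members with the highest AGO2-IP counts and of the sum of the other 71, in each of the 8 libraries (KO, miR-379KO; A and B, replicates). The 5 members sit at 59 to 23366 counts in AGO2-IP and at 19 or fewer in total RNA, while the sum of the other 71 lies between 89 and 155 in both kinds of library.

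The AGO2-IP counts of Snord22 were 23366 and 9514 for the WT pair and 15579 and 18479 for the miR-379KO pair. Its total RNA counts were 19 and 19 for WT and 13 and 13 for miR-379KO. It ranked between 6 and 17 among all gene rows by count in the 4 AGO2-IP libraries. After scaling by TMM library sizes, the summed counts were 9042-fold higher in AGO2-IP than in total RNA in WT (95% exact counting interval 6586 to 12780) and 15512-fold higher in miR-379KO (10585 to 23751). The groups were far apart in both genotypes (edgeR quasi-likelihood test, adjusted p = 1.40e-10 in WT and 5.47e-11 in miR-379KO). Because total RNA was poly(A)-selected, this ratio and those below reflect library type as well as immunoprecipitation, which cannot be told apart.

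The AGO2-IP counts of Snord15b were 20267 and 10449 for the WT pair and 12740 and 7109 for the miR-379KO pair. Its total RNA counts were 1 and 0 for WT and 0 and 4 for miR-379KO. Snord15a, its neighbour in Rps3, had AGO2-IP counts of 7308 and 2935 for the WT pair and of 4704 and 5095 for the miR-379KO pair. Its total RNA counts were 1 and 1 for WT and 0 and 0 for miR-379KO. Every AGO2-IP library thus lay above every total RNA library for both U15 RNAs. Against the floor of 3 counts over the group, Snord15a was at least 38681-fold higher in AGO2-IP than in total RNA in miR-379KO MMC. In WT MMC the ratio was 53522 for Snord15a (95% exact counting interval 14813 to 442007).

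The AGO2-IP counts of Snord17 were 4894 and 1421 for the WT pair and 2944 and 2595 for the miR-379KO pair, against 0 and 3 in total RNA of each genotype. The ratio of AGO2-IP to total RNA was 21998 in WT (7524 to 106700) and 21865 in miR-379KO (7478 to 106057). For Snord8 they were 240 and 112 for the WT pair and 187 and 59 for the miR-379KO pair, with total RNA counts of 0 and 1 for WT and of 2 and 0 for miR-379KO. Its ratio was 1457 in miR-379KO (399 to 12095), and in WT it rested on a single total RNA count. Of the U6 guides Snord8 and Snord67, only Snord8 had more than 3 counts in an AGO2-IP library, as Snord67 had 3, 2, 2 and 0. The U6 guide Snord7 had 0 in all 8 libraries, but it overlaps an annotated exon, so its counts cannot be read as absence.

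Per length, the order of the recovered members was Snord22, Snord15b, Snord15a, Snord17 and Snord8. Counts per kilobase of annotated length per 1000000 gene counts (without Rn45s and Lars2) ranged over the 4 AGO2-IP libraries from 47027 to 131440 for Snord22, from 43940 to 74544 for Snord15b and from 12351 to 30853 for Snord15a. They ranged from 3719 to 10967 for Snord17 and from 481 to 1300 for Snord8. Snord22 and Snord15b overlapped in their ranges, whereas Snord15a stayed below both. Snord15a and Snord17 did not overlap, and Snord8 was below all others.

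**Figure D2:**
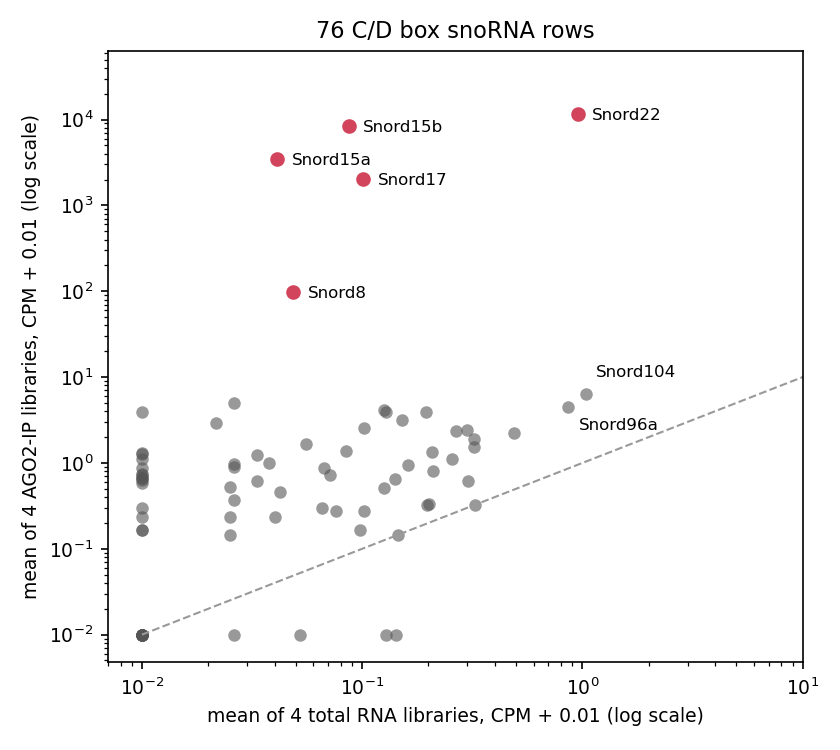
Mean level of each of the 76 members in the 4 total RNA libraries (horizontal) and the 4 AGO2-IP libraries (vertical), as CPM (without Rn45s and Lars2) plus 0.01, on log axes, with the dashed line at equal levels. The 5 recovered members (red) lie far above the rest, and Snord104 and Snord96a, among the highest in total RNA, do not.

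The other 71 members gave AGO2-IP counts of 155 and 138 for the WT pair and of 89 and 89 for the miR-379KO pair, against 109, 134, 124 and 146 in the total RNA libraries. Because the AGO2-IP libraries held far fewer usable counts, the scaled sum was 12.6-fold higher in AGO2-IP than in total RNA in WT (95% exact counting interval 10.6 to 15) and 7.81-fold higher in miR-379KO (6.42 to 9.47). Their mean CPM was higher in AGO2-IP for 57 of the 71. However, a single count was worth 0.533 to 0.896 CPM in AGO2-IP and only 0.0469 to 0.0644 in total RNA, so few AGO2-IP counts sufficed. These values rest on few counts: 42 of the 76 members never exceeded 3 counts in any library, and 8 had 0 in all 8 libraries.

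Among the 71, Snord104 (a large-subunit ribosomal RNA guide) had 11, 23, 17 and 20 counts in WT A, WT B, miR-379KO A and miR-379KO B total RNA and 15, 10, 9 and 5 in AGO2-IP. Its scaled ratio was 7.68 in WT (4.39 to 13.3) and 4.48 in miR-379KO (2.24 to 8.49). Snord96a (a guide for 5.8S ribosomal RNA) had 14, 9, 21 and 16 counts in total RNA and 11, 10, 3 and 4 in AGO2-IP. Its ratio was 9.54 in WT (5.02 to 18) and 2.24 in miR-379KO (0.843 to 5.09), the latter not past the test (edgeR, adjusted p = 0.149). In miR-379KO MMC both had fewer raw counts in AGO2-IP than in total RNA, whereas Snord22 had far more in every AGO2-IP library.

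Snord66 had no count in total RNA and 13, 6, 3 and 3 counts in AGO2-IP, at least 66.2-fold higher in WT and at least 23.7-fold higher in miR-379KO against 3 counts over the group. Snord23 had 8, 10, 9 and 3 counts in AGO2-IP and a single count in total RNA, which gave at least 47.4-fold in miR-379KO. Snord69 had 6, 6, 9 and 3 counts in AGO2-IP and between 1 and 3 in total RNA. The remaining members among the 10 highest in total RNA were Snord12, Snord14a, Snord16a, Snord65, Snord72, Snord47 and Snord52, with means of 4.50 to 8.25 counts there and at most 6 counts in any AGO2-IP library.

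Across all genes, 17429 passed the filter on low counts in the fit of 8 libraries. Of these, 35.7% were called higher and 7.33% lower in AGO2-IP than in total RNA of WT MMC (adjusted p under 0.05 and a 2-fold difference), and 41.6% and 19.3% in miR-379KO MMC. The filter kept 14 of the 76 members, of which 12 were called higher and 0 lower in WT, and 12 and 0 in miR-379KO. Snord72 was called in neither genotype, Snord12 was missed in WT and Snord96a in miR-379KO. Members could pass this filter through their AGO2-IP counts alone, so the share of calls among those kept describes them and carries no further weight. With a minimum mean of 50 counts the 5 recovered members alone were tested, and all 5 were called higher in both genotypes. They too reached that mean through their AGO2-IP counts, so these calls carry no further weight.

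U8, U14 and the members of the Prader-Willi syndrome region, which have other roles than guiding ribosomal RNA methylation or no known target there, had at most 5 counts in any AGO2-IP library. Snord118 (U8), which acts in maturation of the large-subunit ribosomal RNA, had 1, 0, 2 and 1 counts in AGO2-IP and 0 in total RNA. Snord14a (U14), which acts in small-subunit maturation, had 7, 2, 9 and 3 counts in total RNA and 1, 3, 0 and 0 in AGO2-IP. Snord14c and Snord14d had 0 throughout. Snord118 and the Snord14 rows had no match in the RefSeq annotation, so overlap with an exon was not checked. Their low counts cannot be read as absence. The imprinted Snord116, Snord116l1 and Snord116l2 of the Prader-Willi syndrome region had 0 in all 8 libraries. Snord64 of the same region had 0 in total RNA and in WT AGO2-IP and counts of 1 and 5 in AGO2-IP of miR-379KO MMC.

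The 4 members with the highest AGO2-IP counts were the longest ones, whereas length did not set Snord8 apart. GENCODE gave a length for 69 members, with a median of 79 bases (range 64 to 238). Only 4 members were longer than 120 bases, namely Snord22 (126), Snord15b (145), Snord15a (148) and Snord17 (238), and these were the 4 with the highest AGO2-IP counts, with means of 2964 to 16734. Of the 6 members of over 100 and up to 120 bases, Snord8 (110) had a mean of 149.5 counts. The highest count among the other 5 was 10, in Snord23 (109). Snord67 and Snord90 (111 each), both longer than Snord8, had means of 1.75 and 0.25, and Snord89 (110) had a mean of 3.75. None of the 59 members of 100 bases or fewer reached a mean of 10 counts. The RefSeq lengths gave the same 4 members over 120 bases.

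H/ACA box snoRNAs, of which 34 of 36 had a GENCODE length and all were 121 bases or longer, covered a wide range in AGO2-IP. A mean of at least 50 counts was found for 20 of the 34, with Snora70 at 3252 and Snora64 at 2262, while Snora19 was at 0. Within that class Spearman's rho between length and mean count was 0.20 across the 34 RNAs. Across the 69 C/D box members rho was 0.25, and it was 0.06 across the 64 without the 5 recovered members. All points share the same 4 libraries. In the study's protocol AGO2-IP reads were paired and longer than the annotated length of most C/D box members, and whether read length, alignment or fragment recovery took part in this pattern was not tested.

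**Figure D3:**
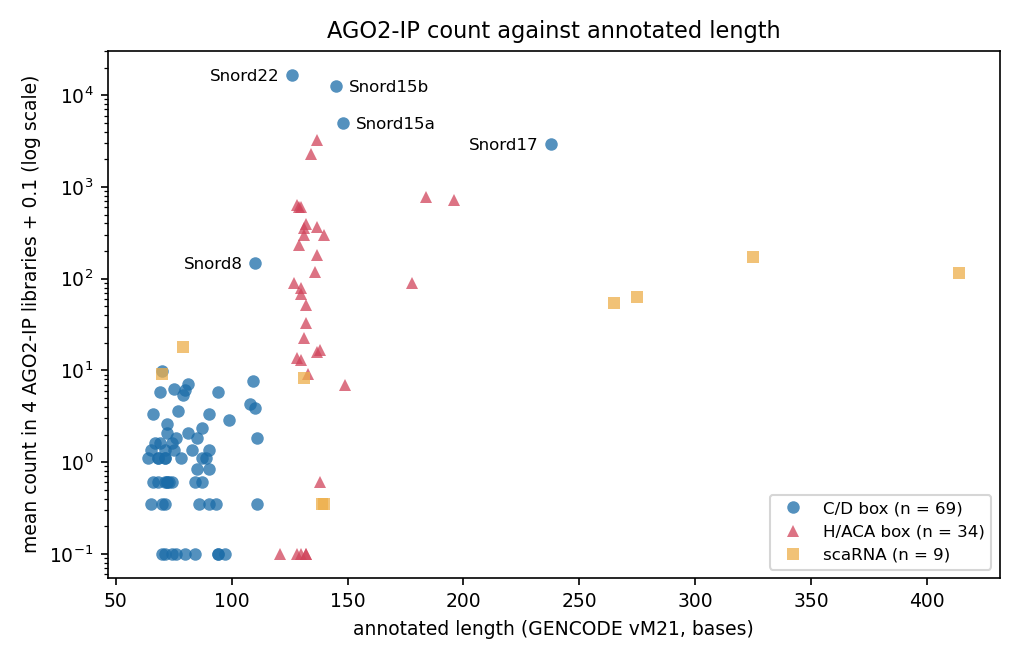
Mean count in the 4 AGO2-IP libraries plus 0.1 (vertical log axis) against annotated length in bases for C/D box snoRNAs, H/ACA box snoRNAs and scaRNAs, 1 point per RNA. The 4 C/D box snoRNAs longer than 120 bases have means of 2964 to 16734, and those of 100 bases or fewer stay below 10.

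Both classes could be compared within a host gene for 4 hosts. Snhg12 carries Snord99, with 1, 0, 1 and 0 counts in AGO2-IP, and Snora44, with 951, 368, 600 and 471. It also carries Snora61, with 925, 359, 636 and 515, and Snora16a, with 316, 113, 181 and 87. Rps12 carries Snord100, with 2, 3, 1 and 0, and Snora33, with 323, 193, 223 and 190. Eif4a2 carries Snord2, with 6, 10, 2 and 5, and Snora81, with 130, 79, 79 and 67. Ncl carries Snord82, with a single count, and Snora75, with 11, 4, 8 and 13. In each of these hosts every H/ACA member had a higher mean than the C/D box member. Each of the 4 C/D box members was 74 bases or shorter.

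As classes, C/D and H/ACA box snoRNAs were near parity in total RNA, with a ratio of summed counts of 0.888 to 1.08. In AGO2-IP the ratio was 3.23 and 3.69 for the WT pair and 2.93 and 3.06 for the miR-379KO pair. The genotypes did not overlap in this ratio, which with 2 libraries against 2 has a smallest possible two-sided exact permutation p above 0.05.

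The host transcripts of Snord22, the U15 pair and Snord17 were counted far less often in AGO2-IP than the snoRNAs themselves. Snhg1, the host of Snord22, had 455, 364, 412 and 470 counts in total RNA and 59, 47, 40 and 44 in AGO2-IP, a log2 difference of 0.44 ± 0.28 (SE) in WT and 0.14 ± 0.28 in miR-379KO, neither past the test (edgeR, adjusted p = 0.200 and 0.670). Rps3 had 8651 to 18439 counts in total RNA and 415, 393, 277 and 174 in AGO2-IP, and was lower in AGO2-IP by the fit (log2 difference −1.69 ± 0.37 in WT, adjusted p = 0.00115). Snx5 had 105, 92, 71 and 74 counts in AGO2-IP, each far under the counts of Snord17 in the same library. Chd8 went the other way, with 315, 312, 190 and 173 counts in AGO2-IP, each above those of Snord8. Among hosts with 3 or more members, mean AGO2-IP counts per member ranged from 0 to 1.25 in Rpl13a, from 0.25 to 1.5 in Rpl23a, from 0.5 to 2.5 in 2410006H16Rik, from 0 to 1.25 in Snhg16 and from 0 to 1.5 in Snhg14. Of the 48 hosts of 69 members, 12 encode ribosomal proteins and hold 20 members.

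An overlapping annotated exon can hide a snoRNA, since a read inside both features counts for neither. Snord1a, Snord45c and Snord7 overlapped a curated exon, and these 3 had 0 in all 8 libraries. Their counts cannot be read as absence. The 6 members without a RefSeq match, among them Snord118 and the Snord14 rows, could not be checked for such overlap.

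The comparison of genotypes in AGO2-IP asked whether loss of miR-379 went with a change in snoRNA recovery. TMM-normalized CPM (over all gene counts) of Snord22 were 2291 and 1100 for the WT pair and 1828 and 2361 for the miR-379KO pair, so the groups overlapped. The log2 fold change was 0.30 ± 0.38 (SE; edgeR, adjusted p = 0.562). Snord15b had 1987 and 1208 CPM for the WT pair and 1495 and 908 for the miR-379KO pair, also overlapping, with a log2 fold change of −0.41 ± 0.36 (adjusted p = 0.403). Snord15a had 716 and 339 CPM for the WT pair and 552 and 651 for the miR-379KO pair, with a log2 fold change of 0.19 ± 0.35 (adjusted p = 0.709). Snord17 (0.07 ± 0.40, adjusted p = 0.910) and Snord8 (−0.31 ± 0.58, adjusted p = 0.735) did not pass either.

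Of 13505 genes tested in AGO2-IP, 21.4% passed as higher in miR-379KO than in WT and 9.52% as lower. Of the 76 members 5 were tested and 0 were called, with 0 at an unadjusted p under 0.05 and 0 by DESeq2. The SEs were 0.35 to 0.58 on the log2 scale. Changes of that size or smaller, and some larger ones, were not detectable with these replicates. Without miR-379KO replicate A, Snord8 was called lower (log2 fold change −1.35 ± 0.33, adjusted p = 0.00161, where the other alternatives gave up to 0.979).

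**Figure D4:**
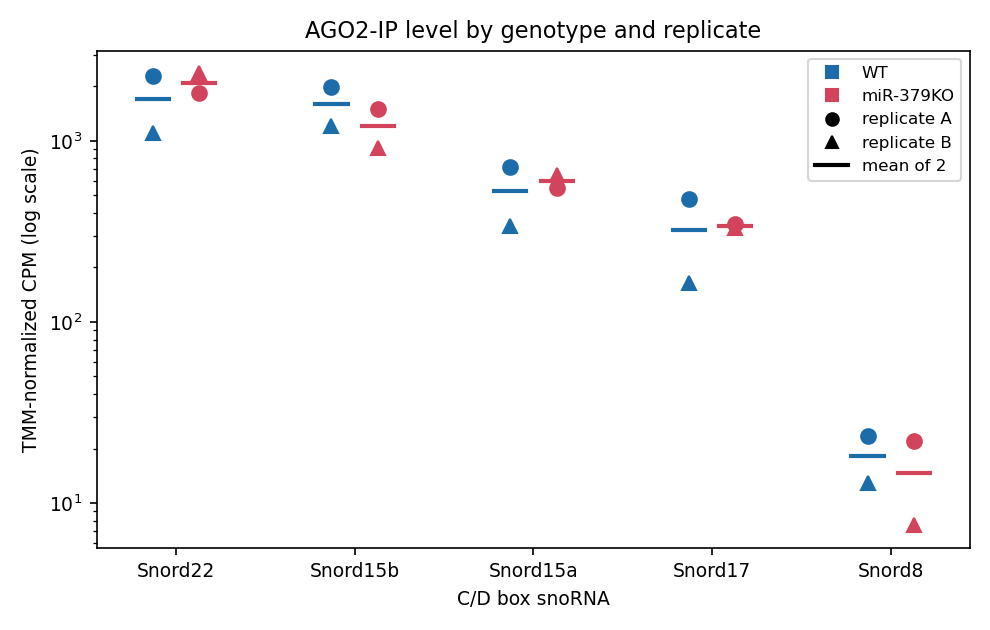
TMM-normalized CPM (log axis) of the 5 recovered members in WT (blue) and miR-379KO (red) AGO2-IP, with replicate A as circles, replicate B as triangles and a bar at the mean of 2. The ranges of the 2 genotypes overlap for all 5 members.

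The WT replicates differed more than the genotypes did. Replicate A exceeded replicate B in CPM by 2.08 times for Snord22, 1.64 times for Snord15b, 2.11 times for Snord15a, 2.92 times for Snord17 and 1.82 times for Snord8. The H/ACA RNAs Snora70 and Snora64 differed likewise, by 2.17 and 2.42 times. In miR-379KO the corresponding ratios of A to B were 0.774 for Snord22, 0.848 for Snord15a and 1.04 for Snord17, but 1.65 for Snord15b and 2.91 for Snord8. Leaving out WT replicate B turned the log2 fold changes of Snord22, Snord15a and Snord17 to −0.17, −0.30 and −0.55, none of them called.

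The make-up of the class also varied between libraries. Snord22 held 41.6% and 38.7% of C/D box counts for the WT pair and 43.0% and 55.3% for the miR-379KO pair. Snord15b held 36% and 42.5% for WT and 35.2% and 21.3% for miR-379KO. Snord15a held 13.0% and 11.9% for WT and 13.0% and 15.2% for miR-379KO. The ratio of Snord15b to Snord15a, which share Rps3, was 2.77 and 3.56 for the WT pair and 2.71 and 1.40 for the miR-379KO pair, with miR-379KO B the lowest of the 4.

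**Figure D5:**
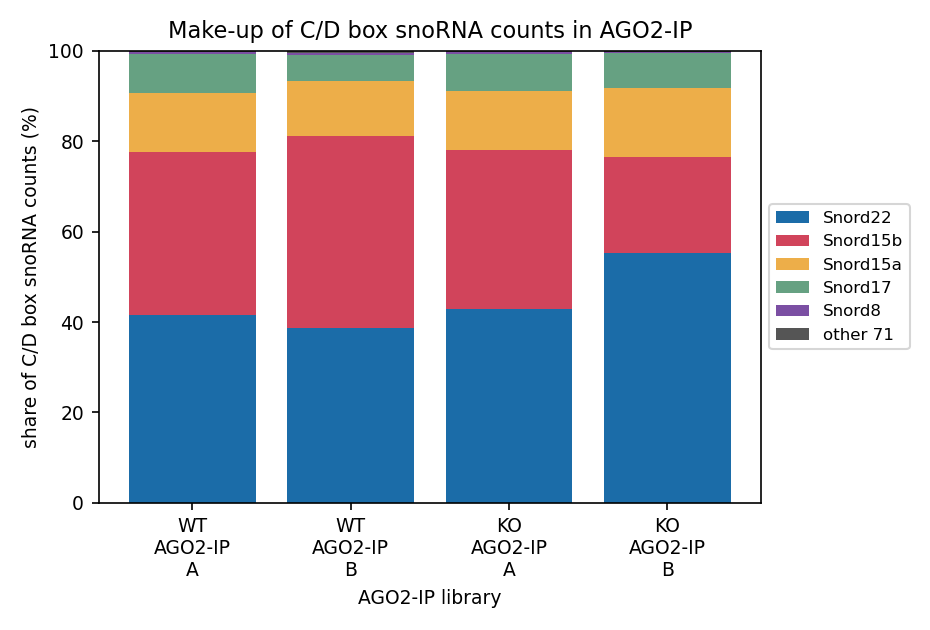
Share of all C/D box snoRNA counts (%) held by each of the 5 recovered members and by the other 71, in the 4 AGO2-IP libraries. Snord22 and Snord15b together make up most of every bar, and miR-379KO B has the highest share of Snord22 (55.3%) and the lowest of Snord15b (21.3%).

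Other features of the AGO2-IP libraries moved with genotype. Reads assigned to genes were 26.8% and 26.9% of listed reads for the WT pair and 12.1% and 11.1% for the miR-379KO pair. The summed level of 5 tubular epithelium markers was 29.3 to 36.1 CPM (without Rn45s and Lars2) in WT and 95.6 to 139 in miR-379KO, that of 4 endothelial markers 12.5 to 19.7 and 37.5 to 47.5, and that of 3 leukocyte markers 12.5 to 18.7 and 43.6 to 77.1, while 4 podocyte markers overlapped (51.7 to 108 and 74.4 to 102). In total RNA these 3 summed levels were at most 29.4, 0.562 and 1.57 CPM, and none of the markers was at 0 in either AGO2-IP group. Their part in the comparison of genotypes was not tested.

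In total RNA, 0% of 12321 genes were called between genotypes and 0.739% had an unadjusted p under 0.05. The 3 members tested were Snord22 (log2 fold change −0.71 ± 0.55), Snord96a (0.48 ± 0.58) and Snord104 (−0.01 ± 0.60), each with an adjusted p of 1.0 by edgeR, and 0 of them passed an unadjusted p of 0.05 or DESeq2. Every WT library had more Snord22 counts (19 and 19) than either miR-379KO library (13 and 13). At these counts a change in the mature snoRNAs was not detectable.

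The change of AGO2-IP beyond that of total RNA was tested as an interaction in all 8 libraries. Over all 17429 genes 0% were called by edgeR and 15.7% had an unadjusted p under 0.05. DESeq2 called 114 of all genes, and edgeR called 8 with the replicate letter as a block and 1108 with the letter as a block within genotype. Of the 14 members tested 0 were called by edgeR or DESeq2 and 1 had an unadjusted p under 0.05. This was Snord96a (log2 −2.08 ± 0.89, adjusted p = 0.282). Snord15a (2.52 ± 1.66, adjusted p = 0.466) and Snord83b (−1.91 ± 1.39, adjusted p = 0.520) followed, both with at most 5 counts in any total RNA library.

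Transcripts of the C/D box snoRNP proteins and assembly factors were not raised over poly(A)-selected total RNA like the recovered snoRNAs. Poly(A) selection bears on this ratio, so library type and recovery with AGO2 cannot be told apart here. Of 14 such genes, 0 were called higher and 5 lower in AGO2-IP than in total RNA of WT MMC; for miR-379KO MMC the counts were 0 and 8. Over all genes tested, 35.7% were called higher and 7.33% lower in WT MMC, and 41.6% and 19.3% in miR-379KO MMC. The methyltransferase Fbl had 801, 1509, 1473 and 1446 counts in total RNA and 43, 54, 25 and 27 in AGO2-IP, with a log2 difference of −1.18 in WT (adjusted p = 0.006) and −2.26 in miR-379KO. Snu13, which binds the box motifs, was lower by −1.23 in WT and −1.54 in miR-379KO on the log2 scale. The core proteins Nop58 and Nop56 had log2 differences of −0.99 and −0.31 in WT, neither called, and of −1.37 and −1.42 in miR-379KO, both called. Among the assembly factors, Ruvbl1 and Pih1d1 and, of the nucleolar factors, Nolc1 were lower in both genotypes, while Tgs1 and Coil passed in neither.

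Between genotypes, 0 of these 14 genes were called in total RNA. In AGO2-IP 13 were tested, and Ruvbl2, an ATPase of the assembly complex, was called lower in miR-379KO (log2 fold change −1.05, adjusted p = 0.037). The median log2 fold change of the 13 was −0.08, beside −0.01 over all genes tested. Of 41 host genes tested in AGO2-IP, 0 were higher and 8 lower in miR-379KO, beside 21.4% called higher and 9.52% lower over all genes. The Rps3 transcript fell by 0.65 on the log2 scale (SE 0.24, adjusted p = 0.0452), while its U15 RNAs gave −0.41 ± 0.36 and 0.19 ± 0.35. The difference between host and snoRNA was not tested.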

How the data were processed

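Per the labels and the study's methods, reads were placed on mm10 by the authors (TopHat with Bowtie2, version 2.1.0.1 in the submitters' processing notes), who deposited raw counts per UCSC RefSeq gene, made with htseq-count (HTSeq 0.6.0) in reverse-stranded mode with an alignment quality of at least 10. Reads placed in more than 1 position (13.7% to 54.4% of listed reads) and reads in overlapping genes were not counted, so near-identical copies (Snord53, Snord58b, the Snord116 group) are uncertain. Summary lines were kept out of library sizes.

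Counts were tested in edgeR 4.0.16 (R 4.3.3; TMM, filterByExpr with a minimum count of 10, robust quasi-likelihood F test, Benjamini-Hochberg). AGO2-IP was compared with total RNA, and the interaction tested, on all 8 libraries; genotypes were compared on the 4 libraries of an assay. SE is the log2 fold change divided by the square root of F. DESeq2 1.42.0 and other settings were alternatives. The steps were tested on simulated data. Annotation came from RefSeq GRCm38.p6 (70 of 76 members matched, 69 by symbol and 1 by synonym) and GENCODE vM21. Replicates differed beyond sampling noise (chi-square per degree of freedom 3.51 to 119). Floors used 3 counts. Named members were those with roles outside ribosomal RNA methylation, the 10 most abundant of each assay, up to 5 called per comparison and direction with a mean of at least 50 counts, or the 3 with the smallest p where none was called, and the extremes of hosts with 3 or more members. The members and lists were chosen with earlier results of these data known. Some host genes are not reported here by name.

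Across genes, deviations of same-letter libraries of the 2 genotypes correlated at −0.21 in total RNA and −0.03 in AGO2-IP. These values gave no sign that the letters paired the genotypes, but they cannot exclude it. Between total RNA and AGO2-IP of 1 genotype, the difference of A from B correlated over 17429 genes at 0.09 for the WT pair and 0.02 for the miR-379KO pair, and at 0.22 and 0.18 over the 10198 with a mean of at least 50 counts, so whether a letter marks a shared culture across the 2 assays was not settled.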

Additional observations from a re-analysis of the deposited data

How the results depend on the processing

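Members could be called between AGO2-IP and total RNA through their AGO2-IP counts alone, so the numbers called carry no further weight. In the fit as reported, 35.7% of all genes were called higher in WT and 41.6% in miR-379KO. The number of members called (12 in each genotype) was 34 in WT and 31 in miR-379KO without the filter on low counts. It was 5 and 5 with a minimum mean of 50 counts, since fewer or more members were tested. Leaving out each library gave 12 to 18 in WT and 11 to 16 in miR-379KO. The replicate block called the same 12 members in each genotype and 0 in the other 3 comparisons; over all genes its calls went from 4173 to 3817 between genotypes in AGO2-IP and from 0 to 8 in the interaction. A replicate block within genotype, added after the data were seen, called 12 members in WT, 11 in miR-379KO (Snord12 was lost) and 0 in the interaction, where it called 1108 of all genes. Between genotypes in AGO2-IP the count of 0 became 1 without the filter (Snord55, −3.11 on the log2 scale, adjusted p = 0.00621, with counts of 9, 10, 1 and 1) and 0 to 1 when each library was left out (Snord8, without miR-379KO replicate A). For the interaction the study's cutoff (over 1.5-fold at an unadjusted p under 0.05) gave 1 (Snord96a, whose adjusted p ranged from 0.231 to 0.805 over the alternatives). In total RNA 0 were called under each alternative that gave a value, the crossed pairing of letters, added after the data were seen, included. No member reached a mean of 50 counts there.

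Among uncalled log2 fold changes in AGO2-IP, the sign turned for Snord15a (−0.0209) and Snord17 (−0.13) without the filter, for Snord17 in the fit of 8 libraries (−0.0702) and for Snord8 with a minimum mean of 50 counts (0.0346). Leaving out each library gave −0.17 to 0.86 for Snord22, −0.30 to 0.76 for Snord15a, −0.55 to 0.98 for Snord17 and −1.35 to 0.24 for Snord8. In total RNA Snord104 turned to 0.0302 with the replicate block and 0.0176 in the fit of 8 libraries, and ranged from −0.40 to 0.53 when each library was left out. Snord104 in miR-379KO lost its call in AGO2-IP against total RNA without miR-379KO AGO2-IP replicate A (1.68, adjusted p = 0.124). With RLE factors the median over all genes went from 0.47 to 0.66 for AGO2-IP against total RNA of miR-379KO MMC and from 0.01 to 0.28 for the interaction.

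The C/D box share of gene counts was 2.26% in WT and 2.88% in miR-379KO AGO2-IP without Rn45s and Lars2. Of all gene counts the shares were 0.293% and 0.576%, and without Snord22 they were 0.175% and 0.292%. In WT total RNA the share of all gene counts was 0.000723% without Snord22. Depth limits the 71 members with at most 15 AGO2-IP counts.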
